A study of Mus musculus with 2 samples.

Results

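Growth hormone (GH) signals to the liver through a short relay that ends in the secretion of insulin-like growth factor 1 (IGF1), and 10 genes of this axis were followed in the livers of Pgrmc1 knockout (KO) and wild-type (WT) male mice. They were taken by symbol from the deposited expression table, where all 10 are among its 24054 genes. The receptor and its signal carrier are Ghr, Stat5a and Stat5b. The circulating IGF1 group holds Igf1, Igfals, Igfbp2 and Igfbp4. The feedback inhibitors Socs2 and Cish and the repressor Bcl6 complete the set. In the KO library, Socs2 and Bcl6 were higher and Cish was lower, whereas Ghr, Stat5b and Igf1 were at almost the same level in both libraries.

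As background, GH binds its receptor on hepatocytes, the receptor-bound kinase JAK2 phosphorylates STAT5, and STAT5 then enters the nucleus and drives Igf1, Igfals, Socs2 and Cish. The SOCS proteins, among them SOCS2 and CIS (encoded by Cish), dampen the receptor in return, and BCL6 occupies many of the DNA sites that STAT5 uses and represses the genes there. Male mice release GH in pulses and female mice more steadily, so pulses of STAT5 activity set much of the difference between male and female liver.

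Whole-body Pgrmc1 KO males (Pgrmc1 -/Y) were compared with WT males, all 8 to 12 weeks old and labelled C57BL/6. The KO came from a floxed C57BL/6N allele (loxP sites around exons 1 and 2) crossed to the Sox2-Cre line B6.Cg-Tg(Sox2-cre)1Amc/J, whose Cre acts in the early embryo, so the deletion was made in the whole body and not in hepatocytes alone. Equal masses of liver RNA (2.5 μg) from 5 mice of each genotype were pooled into 1 library. There are no replicates, so no difference below has a p-value, a standard error or a replicate check, and differences between mice, or in the genetic background brought in with the alleles, cannot be told apart from the genotype.

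Levels are given in TPM, the share that a gene takes of all transcripts after correction for transcript length, so that levels can be compared between genes. Changes are log2((KO TPM + 0.1)/(WT TPM + 0.1)), on which the change of a gene at a low level is slightly too small. Each interval given with a change is a 95% Clopper-Pearson interval of the ratio of the authors' library means in a second deposited table. It rests on estimated reads and covers counting error only. A gene passed the fold rule with a fold of at least 1.4 (up) or at most 0.6 (down), and genes were counted where their mean reached 1 TPM, which was true of all 10 axis genes and of 11623 genes in all. The libraries held an estimated 22086692 (KO) and 29710419 (WT) reads on genes. Pgrmc1 followed the labels, at 0.68 TPM in the KO pool and 949.49 TPM in the WT pool. Of 9 hepatocyte markers found, none was at 0, and their summed level was 86068 TPM in the KO pool and 88463 TPM in the WT pool. Because these are whole-liver RNA pools, fewer cells of a type and less RNA per cell cannot be told apart.

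Of the 10 axis genes, 2 passed the fold rule upward (Socs2 and Bcl6), 1 passed it downward (Cish) and 7 passed neither. Among all 11623 genes, 2.41% passed upward and 0.602% downward. The median change of the axis genes was 0.07, beside -0.01 for all genes, and 6 of the 10 lay above 0. Over all genes the changes ran from -0.32 at the 5th percentile to 0.34 at the 95th. All 3 genes that passed the rule belong to the feedback and repressor group, and none of the 7 genes of the other groups did.

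**Figure D1:**
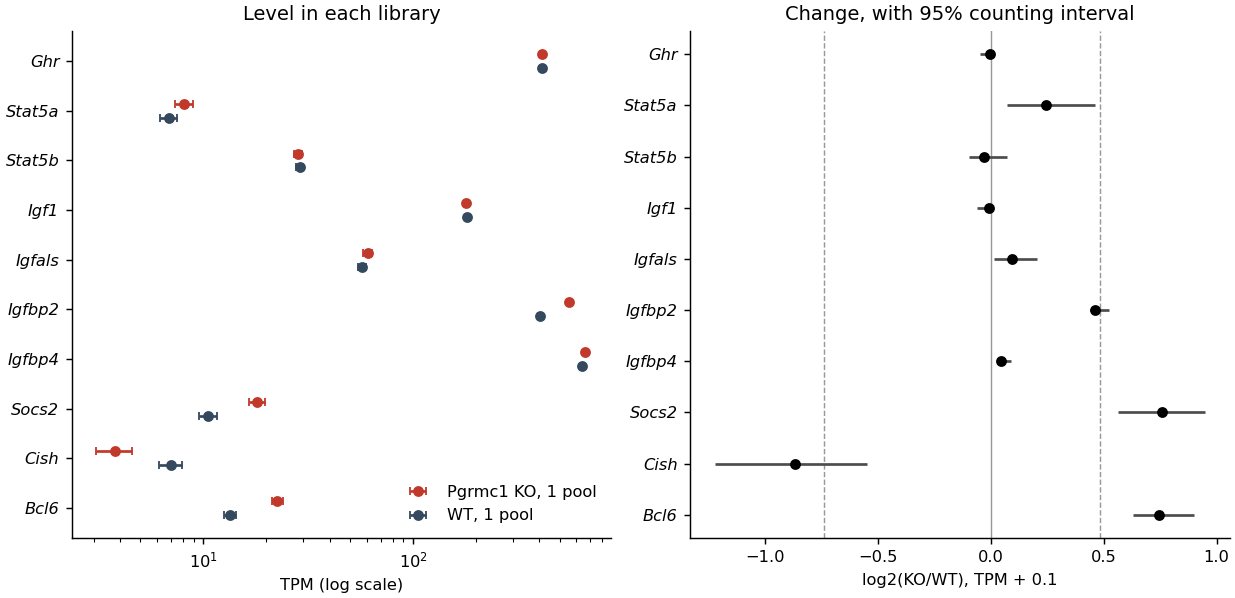
Left, the level of each axis gene in the KO and the WT pool (TPM, log axis; bars are 95% Poisson intervals of the estimated reads, scaled to TPM). Right, the change as log2(KO/WT) with its 95% counting interval; dashed lines mark the fold rule. Socs2 (0.76) and Bcl6 (0.75) lie beyond the right line and Cish (-0.87) beyond the left, while Igfbp2 (0.46) lies just inside the right line.

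Socs2 encodes a SOCS protein that binds the GH receptor and targets it for degradation. The gene (Entrez gene 216233; chromosome 10, 95383903 to 95417321 of GRCm38, the mm10 assembly) was at 17.97 TPM in the KO pool and 10.58 TPM in the WT pool. This is a fold of 1.69 and a log2 change of 0.76 (interval 0.56 to 0.95; 497 estimated reads in KO and 397 in WT). It was the 105th largest rise of the 11623 genes, and the interval lay wholly beyond the limit of 1.4-fold. Of its 100-base transcript windows, 2.31% also occur in the gene model Gm9847, and the other windows are its own.

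Cish encodes CIS, the SOCS protein that competes with STAT5 for the activated receptor and whose gene is among the quickest to answer a GH pulse. The gene (Entrez gene 12700; chromosome 9, 107296659 to 107302784) was at 3.78 TPM in the KO pool and 6.98 TPM in the WT pool, a fold of 0.548. The log2 change was -0.87 (interval -1.22 to -0.55), the 43rd largest fall. Cish was the least abundant axis gene in KO and rests on the fewest reads, 105 in KO and 261 in WT. Its interval still lies wholly below 0, but part of it lies inside the fold limit of 0.6. Cish overlaps 2 gene models on the opposite strand. The library kit keeps the strand, but the value of the strand option used in alignment is not given in the sources used here.

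The 2 feedback genes, both STAT5 targets, stood on opposite sides of the WT level. There were 4.75 Socs2 transcripts for each Cish transcript in KO and 1.52 in WT, a ratio that was 3.14 times higher in KO.

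Bcl6 encodes the zinc finger repressor whose binding sites in male liver overlap those of STAT5. The gene (Entrez gene 12053; chromosome 16, 23965050 to 23988866) was at 22.55 TPM in the KO pool and 13.4 TPM in the WT pool. The fold was 1.68 and the log2 change 0.75 (interval 0.63 to 0.90; 990 estimated reads in KO and 787 in WT), the 110th largest rise, again with the whole interval beyond 1.4-fold. Relative to Stat5b, the main hepatic STAT5 gene, there were 0.798 Bcl6 transcripts per Stat5b transcript in KO and 0.464 in WT.

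STAT5 and BCL6 both recognise a palindrome that reads TTCNNNGAA, the same on both strands. It was looked for in the RefSeq promoter windows (GRCm38; 250 bases before to 50 bases after each start) of the axis genes. Such windows were found for 9 of the 10 genes (Socs2 is the other), 16 windows in all, and 5 of them (31.2%) hold the motif. These belong to Cish, Bcl6 and Igfals, while 8.30% of all 32851 windows hold it. The stretches that carry it are shown 5′ to 3′ on the strand of the gene, with the motifs in capitals, because they show where the motif that both factors read sits in these genes. For Cish, the 30 bases that follow the RefSeq start hold 2 motifs and lie in the first exon, in the UTR, on the plus strand at chr9:107296659-107296688.
Cish: TTCCTGGAAagTTCTTGGAAatctgtcaaa
For Bcl6, the window of one start holds 3 motifs, at -168, -122 and -88 from that start, within an intron on the minus strand at chr16:23981348-23981466. The window of the other start holds 1, at -118, before the gene at chr16:23988947-23988985.
Bcl6, intron: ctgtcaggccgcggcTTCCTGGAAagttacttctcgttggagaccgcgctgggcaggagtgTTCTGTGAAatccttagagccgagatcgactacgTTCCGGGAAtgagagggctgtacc
Bcl6, before the gene: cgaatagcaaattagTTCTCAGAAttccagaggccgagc
For Igfals, 2 windows hold 1 motif each, at -236 (chr17:24877594-24877631) and at -58 (chr17:24878158-24878196) from their starts, both on the plus strand and outside the exons.
Igfals, first window: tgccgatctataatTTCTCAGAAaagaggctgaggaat
Igfals, second window: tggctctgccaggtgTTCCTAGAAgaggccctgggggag
Among all windows, 0.457% hold at least 2 such motifs and 0.0335% at least 3. The axis genes include STAT5 targets by choice, and 1 gene can give several windows, so these shares are description only. A match describes letters in a window, not binding, and the 3 genes that hold it had log2 changes of -0.87 (Cish), 0.75 (Bcl6) and 0.096 (Igfals).

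Ghr encodes the GH receptor. It was at 411.61 TPM in the KO pool and 412.59 TPM in the WT pool (Entrez gene 14600; chromosome 15, 3317755 to 3583352), a fold of 0.998 with an interval of -0.05 to 0.01 on the log2 scale. With 14890 and 20348 estimated reads, counting error leaves little room for a difference between these 2 libraries. Per transcript of Jak2, the receptor's kinase, there were 41.8 Ghr transcripts in KO and 39.6 in WT.

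Stat5b and Stat5a are adjacent genes on chromosome 11 that encode the 2 closely related forms of STAT5. Stat5b (Entrez gene 20851; 100780731 to 100859004) was at 28.27 TPM in the KO pool and 28.87 TPM in the WT pool, a log2 change of -0.03 (interval -0.10 to 0.07). Stat5a (Entrez gene 20850; 100859351 to 100885169) was at 8.12 TPM in the KO pool and 6.84 TPM in the WT pool, a log2 change of 0.24 (interval 0.07 to 0.46) that passed neither limit. The 2 genes share 265 of their 100-base windows, 3.44% of those of Stat5a and 4.79% of those of Stat5b, where the aligner can split reads between them. Their summed level was 36.39 TPM in the KO pool and 35.71 TPM in the WT pool, and Stat5a made up 22.3% of it in KO and 19.2% in WT.

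Igf1, the hormone that the axis delivers, was at 178.96 TPM in the KO pool and 179.87 TPM in the WT pool (Entrez gene 16000; chromosome 10, 87858265 to 87937047), a fold of 0.995. The interval, -0.06 to -0.00035, just missed 0 in the authors' means and is narrow because it rests on 14896 and 20554 estimated reads. Igfals encodes the acid-labile subunit, which holds IGF1 in a long-lived complex in plasma. It was at 60.85 TPM in the KO pool and 56.93 TPM in the WT pool (Entrez gene 16005; chromosome 17, 24877844 to 24882011), a log2 change of 0.096 (interval 0.02 to 0.20). There were 34.0 Igfals transcripts per 100 Igf1 transcripts in KO and 31.7 in WT.

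Igfbp2 encodes a binding protein that carries IGF1 outside the complex with the acid-labile subunit, and Igfbp4 encodes one that mostly holds IGF1 away from its receptor. Igfbp2 was at 554.71 TPM in the KO pool and 402.12 TPM in the WT pool (Entrez gene 16008; chromosome 1, 72824480 to 72852474). Its fold of 1.38 was just under the limit, its log2 change was 0.46 (interval 0.44 to 0.52), and it was the 305th largest rise. The interval spans the limit of 1.4-fold, so counting error alone does not place Igfbp2 on either side of it. In absolute terms Igfbp2 had the largest difference of the 10 genes, 152.6 TPM. Igfbp4 was at 664.13 TPM in the KO pool and 642.6 TPM in the WT pool (Entrez gene 16010; chromosome 11, 99040005 to 99052655), a log2 change of 0.048 (interval 0.03 to 0.09). No gene of the IGF1 complex passed the fold rule, and the median of its 4 genes was 0.07.

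**Figure D2:**
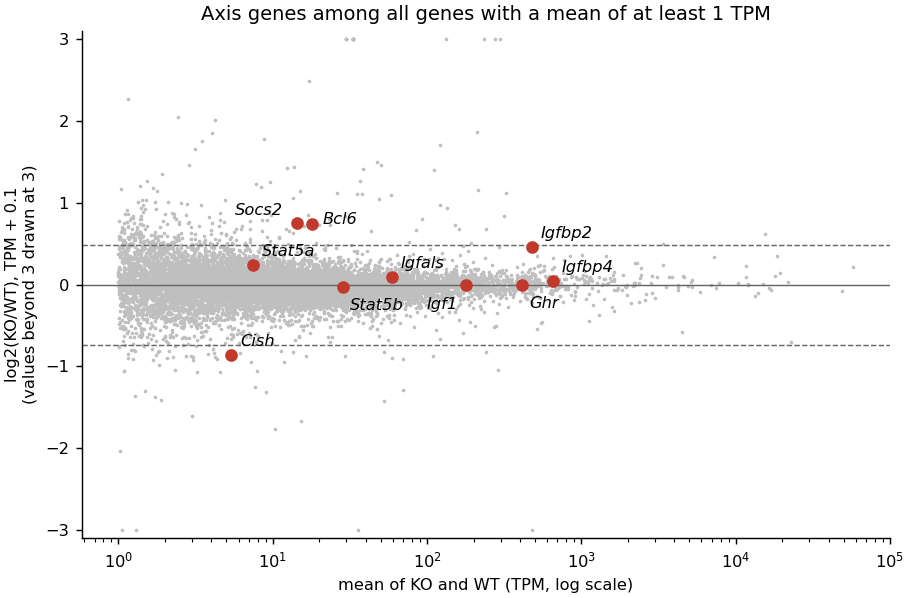
Change of every gene with a mean of at least 1 TPM (grey; log2(KO/WT), values beyond 3 drawn at 3) against its mean level (TPM, log axis), with the axis genes in red and the fold rule as dashed lines. Socs2, Bcl6 and Cish lie beyond the dashed lines, Igfbp2 (0.46) lies just under the upper line at a mean of 478 TPM, and the other 6 axis genes lie between -0.03 and 0.24.

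The order of the levels was nearly the same in both libraries. In KO it ran from Igfbp4 through Igfbp2, Ghr, Igf1, Igfals, Stat5b, Bcl6, Socs2 and Stat5a to Cish, and no 2 neighbours had overlapping Poisson intervals. In WT, Ghr stood above Igfbp2 and Cish above Stat5a, but these 2 pairs of neighbours had overlapping intervals, 412.59 and 402.12 TPM for the first and 6.98 and 6.84 TPM for the second. Thus the 2 changes of order concern Igfbp2, which was above Ghr in KO, and Cish, which was below Stat5a in KO.

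The other genes of the IGF system were taken as a list, of which 8 of 13 had a mean of at least 1 TPM. Of these 1 passed upward and none downward, and the median change was -0.18. The gene that passed was Igfbp1, which encodes a binding protein made by the liver when insulin is low. It was also the most abundant of the list, at 294.54 TPM in the KO pool and 132.17 TPM in the WT pool, a log2 change of 1.16 (interval 1.11 to 1.23). The receptors Igf1r (1.1 TPM in KO and 1.28 in WT), Igf2r (19.66 and 21.56) and Insr (44.62 and 43.82) passed neither limit. Igfbp3, which forms the large plasma complex together with IGF1 and the acid-labile subunit, was at 23.63 TPM in the KO pool and 28.13 TPM in the WT pool (-0.25).

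Igfbp1 to Igfbp7 together gave 1631 TPM in the KO pool and 1317 TPM in the WT pool, 1.24 times as much in KO. Igfbp1 and Igfbp2 together gave 849 TPM in the KO pool and 534 TPM in the WT pool, whereas Igfbp3 to Igfbp7 gave 782 and 783 TPM. The last 2 sums are close because differences offset each other. Igfbp4 was 21.53 TPM higher in KO, whereas Igfbp3, Igfbp5 and Igfbp7 were lower. Igfbp6 was under 1 TPM (0.5 in KO and 0.72 in WT), and its interval of -2.12 to 0.84 spans 0. Igfbp7 was at 92.33 TPM in the KO pool and 109.45 TPM in the WT pool (-0.25; interval -0.33 to -0.12). With Igf1 at nearly the same level in both pools, binding protein transcripts per Igf1 transcript were 9.11 in KO and 7.32 in WT. Igfbp4 was the largest contributor in both libraries, with 40.7% of the sum in KO and 48.8% in WT. Igfbp2 made up 34.0% in KO and 30.5% in WT, and Igfbp1 18.1% and 10.03%.

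**Figure D3:**
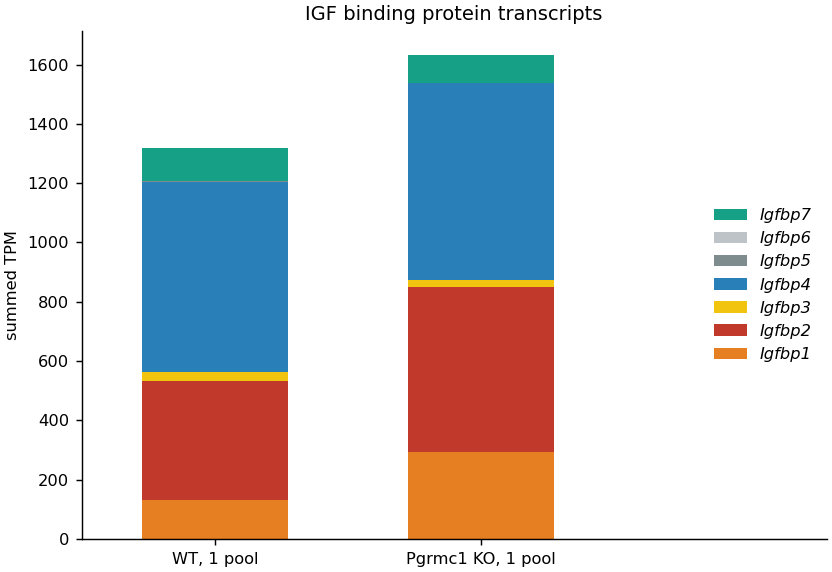
Summed level (TPM) of the 7 IGF binding protein genes in the WT and the KO pool, stacked by gene; each bar is 1 pooled library, with no error. The KO bar is taller (1631 against 1317 TPM) through the Igfbp1 and Igfbp2 parts at its foot. The remaining genes sum to 782 and 783 TPM, with Igfbp4 higher and Igfbp7 lower in KO.

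Partners of the GH receptor in signalling (19 genes, all with a mean of at least 1 TPM) had a median change of 0.09, with 1 gene up and none down. The gene up was Irs2, the insulin receptor substrate that the GH receptor also engages through JAK2, at 18.15 TPM in the KO pool and 6.69 TPM in the WT pool (1.43; interval 1.29 to 1.61). The kinase genes Jak2 (9.84 TPM in KO and 10.41 in WT) and Jak1 (50.07 and 51.89, the most abundant of the list by the mean of both libraries) had changes of -0.08 and -0.05. The other SOCS genes and phosphatases numbered 11 of 12 above the level limit. None passed in either direction, and their median was -0.05. Socs3, which answers interleukin 6 more than GH, had the highest change of them, 0.36, at 6.16 TPM in the KO pool and 4.79 TPM in the WT pool, and Socs4 the lowest, -0.28. Ptpn6, a phosphatase that acts on JAK2 and STAT5, was the most abundant, at 12 and 12.73 TPM. Socs2 and Cish were thus the SOCS family genes above 1 TPM that passed the fold rule, in opposite directions.

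Genes that differ between male and female liver under control of GH pulses were counted beside the axis. Of 25 male-biased genes above the level limit, 1 passed upward (Susd4, 15.71 TPM in KO and 9.9 in WT) and none downward, with a median of -0.0029. The male-biased genes Cyp7b1 (240.09 and 240.57 TPM) and Elovl3 (490.74 and 478.91 TPM) were nearly level. The paper describes Cyp7b1 mRNA as elevated in KO liver, which these TPM values do not show. Nor do the authors' means in the second table, 7850 in KO and 7789 in WT (0.011, interval -0.03 to 0.06). Mup20, the most abundant, was at 17438 TPM in the KO pool and 28503 TPM in the WT pool (-0.71), and Mup genes are near-identical copies whose reads can be split. Of 16 female-biased genes, 1 passed upward (Acot3, 1.44 TPM in KO and 0.75 in WT) and 1 downward (Cyp2a4, 0.22 and 70.88 TPM, with close paralogs). The intervals of Susd4 (0.47 to 0.89) and Acot3 (0.30 to 1.66) span the limit of 1.4-fold. The log2 change of Cyp2a4, -7.79, was the 2nd largest fall of the 11623 genes. Of the 16 female-biased genes, 4 lay above 0, and the median was -0.18. Among those below 0, Cd36 (-0.68), Lpl (-0.43) and Vldlr (-0.13) also belong to the lipid genes that GH holds down, described further below. Fmo1, the most abundant of them, was at 81.26 and 81.62 TPM, and 15 of the 31 female-biased genes listed were under 1 TPM. Transcription factors that set sex-biased expression (16 of 17 above the limit) had none up or down and a median of 0.06. Foxa2 had the lowest change of them, -0.51 (interval -0.67 to -0.31), at 14.7 TPM in the KO pool and 20.96 TPM in the WT pool. It would count as lower with the mirror limit of 1/1.4. Hnf4a, the most abundant, was at 262 TPM in the KO pool and 277 TPM in the WT pool.

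**Figure D4:**
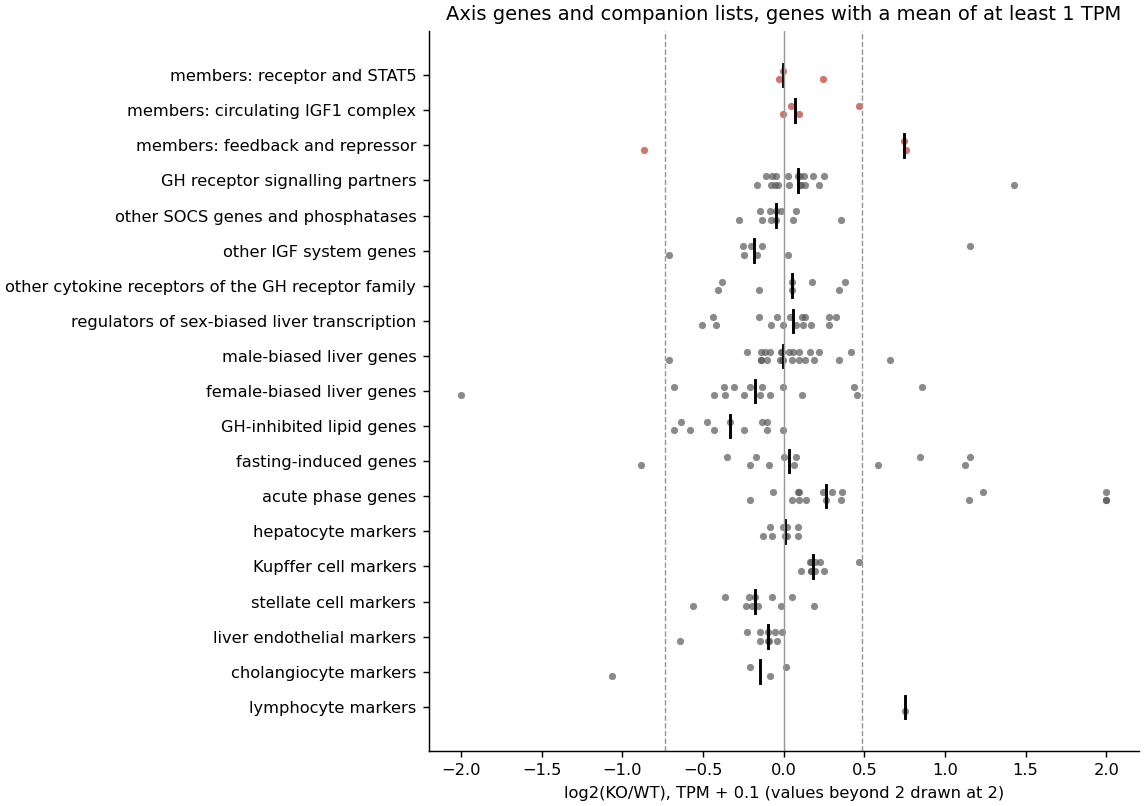
Change (log2(KO/WT), values beyond 2 drawn at 2) of each gene with a mean of at least 1 TPM in the axis groups (red) and in the companion lists (grey); black bars are medians and dashed lines mark the fold rule. The feedback and repressor genes have no point between the dashed lines, whereas the male-biased genes are centred near 0.

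Some acute phase and fasting-induced genes also passed the fold rule, and their part in the changes of Socs2, Cish, Bcl6 and Igfbp2 was not tested. Of 17 acute phase genes, which the liver raises in inflammation, 5 passed upward and none downward (Saa2, 3.72; Saa1, 3.17; Orm2, 2.49; Lcn2, 1.23; Saa3, 1.15), 15 lay above 0 and the median was 0.26. The list summed to 22842 TPM in the KO pool and 19888 TPM in the WT pool, and Fgb was its most abundant gene. The Saa and Orm genes have close paralogs with which reads can be split. Of 12 fasting-induced genes, 4 passed upward (Igfbp1; G6pc, 445.52 TPM in KO and 204.76 in WT; Ddit4, 21.92 and 12.14; Pdk4, 6.43 and 4.26) and 1 downward (Fgf21, 2.93 and 5.5 TPM). The intervals of Pdk4 (0.36 to 0.85) and Fgf21 (-1.56 to -0.30) span their limits. Pck1, the most abundant, was at 2204 TPM in the KO pool and 2551 TPM in the WT pool, and the median of the list was 0.03. The time of day and the feeding state at which these livers were taken are not given in the sources used here.

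The 10 Kupffer cell markers all lay above 0 (median 0.18; summed 358 TPM in KO and 311 in WT) and the 10 endothelial markers all below it (median -0.10; 256 and 281 TPM), with no gene of either list past the fold rule. Stab1, the highest endothelial marker at -0.0086, was at 0.0016 in the authors' means. Intervals of some genes in both lists include 0. By the mean of both libraries, C1qa and Clec4g were their most abundant genes. Folr2, a Kupffer cell marker at 15.59 TPM in KO and 11.24 in WT, passed upward with the values of the second table and after rescaling without the 50 most abundant genes. The 11 stellate cell markers, led by Dcn, had none past the rule and a median of -0.18 (306 and 341 TPM). Of 4 cholangiocyte markers above the limit, led by Spp1, 1 was down (Epcam, 0.67 TPM in KO and 1.51 in WT; not with a pseudocount of 1 TPM), and their list summed to 62.0 and 67.0 TPM. Of 9 lymphocyte markers, 1 reached the limit (Cd79b, up at 1.38 and 0.78 TPM, with an interval of -0.20 to 1.98; not with a pseudocount of 1 TPM), and the list summed to 4.69 and 4.81 TPM. In the second table, Nkg7 (a lymphocyte marker named after its values were seen) had 0 estimated reads in KO and 12 in WT, and every other marker had reads in both libraries. The median of the 9 hepatocyte markers, led by Alb, was 0.010. The part of these cell type differences in the axis genes was not tested.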

How the data were processed

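The authors aligned paired 100-base reads of 1 stranded total RNA library per genotype to mm10 with RSEM 1.2.09 and Bowtie (base calling with CASAVA 1.8.2, per the submitters' processing notes) and deposited posterior mean TPM. A second table, deposited by the authors from EBSeq, holds for 16318 genes the signal of each library (reads divided by a size factor), used here only for estimated reads, intervals and 1 alternative, with its columns tied to KO and WT by the study's own naming of the same values. Its posterior probabilities of equal and of differential expression and its fold changes are the authors' own comparison and were not used. RSEM was run with its strand option (forward-prob), whose value is not given in the sources used here. Stat5a, Igf1, Cish and Bcl6 overlap genes on the opposite strand. The TPM columns sum to 1005325 (KO) and 994702 (WT), so the libraries differ slightly in scale, and the step behind this is not given in the sources used here.

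The most frequent value of that signal (1.16 in KO, 0.860 in WT) was taken as 1 read. Within a tolerance of 0.02, 78.4% (KO) and 75.0% (WT) of values were whole reads, so no count test was run. Reads of PCR copies are not independent molecules. The members and 16 companion lists (222 of 224 genes matched; Es31 and Tf were not) were chosen with earlier results of these data known. Named genes are the 10 axis genes, Pgrmc1 and, per list, genes past the fold rule (up to 5 each way) and the most abundant gene. Jak2, Socs3, Socs4, Igf1r, Igf2r, Insr, Igfbp3, Cyp7b1, Elovl3, Igfbp5, Folr2, Nkg7, Prlr, Lepr, Cd36 and Fabp4 were chosen after their values were seen. So were Foxa2, Rgs5, Lyve1, Igfbp6, Igfbp7, Lpl, Vldlr, Cidec and Stab1. Coordinates are RefSeq's on GRCm38, and shared windows and overlaps come from GENCODE models of that assembly. Scripts ran in Python 3.11.15 (scipy 1.17.1, pandas 2.3.3, numpy 2.4.6, matplotlib 3.10.9) and were tested on simulated libraries.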

Additional observations from a re-analysis of the deposited data

How the results depend on the processing

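Socs2, Bcl6 and Cish were the 3 axis genes called with a pseudocount of 1 TPM, with the second table's values, after centring on the median gene, after rescaling without the 50 most abundant genes, without a filter on low values and with 1/1.4 as the limit for falls. Limits of 2 and 0.5 left 0 axis genes up and 0 down, and a mean of at least 10 TPM, which removes Cish and Stat5a, left 2 up and 0 down. Over these settings Cish ran from -0.87 to -0.74, Socs2 from 0.71 to 0.78, Bcl6 from 0.71 to 0.76 and Igfbp2 from 0.46 to 0.48; Ghr ran from -0.02 to 0.01 and Igf1 from -0.03 to 0.0081. Stat5a and Stat5b summed (added after seeing the data) gave 0.03. Among all genes, 280 were up and 70 down, against 141 and 35 with a pseudocount of 1 TPM, 1063 and 264 without a filter, 63 and 17 at means from 10 TPM upward, and 58 and 23 with limits of 2 and 0.5. With 1/1.4 for falls, 223 were down, and genes up made 55.7% of calls in place of 80.0%. In the companion lists that limit also placed Foxa2, Mup20, Igfbp5, Rgs5, Lyve1, Cd36, Fabp4 and Scd1 among the falls. Of the counts in companion lists under alternatives, 228 stayed within 1.5 times and 28 did not; with a pseudocount of 1 TPM, Acot3, Fgf21, Epcam and Cd79b no longer passed, and with the second table's values Folr2 passed upward and Igfbp5 downward. No paired analysis was possible because KO and WT are 1 pool each, which also leaves no replicate to leave out. Of the axis genes, Cish rests on the fewest reads (105 in KO), and the single pool per genotype limits all 10.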

Other observations

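Of 11 lipid genes that GH holds down in liver and that had a mean of at least 1 TPM, none passed the fold rule in either direction. The median change was -0.33 and 0 of the 11 lay above 0, beside 5319 of all 11623 genes, and values ran from -0.68 to -0.0063. The last value is that of Cidec, which was at 0.0030 in the authors' means (interval -0.58 to 0.58). The most abundant was Scd1, the stearoyl-CoA desaturase, at 3593 TPM in the KO pool and 5380 TPM in the WT pool (-0.58). The fatty acid transporter Cd36 had the lowest value, at 10.74 and 17.28 TPM, followed by Fabp4 with -0.64. These 3 genes would count as lower with the mirror limit of 1/1.4. The list was chosen with results of these data known, and the pattern has no replicate check.

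Other receptors of the GH receptor's cytokine family (8 of 11 above the level limit) had none past the fold rule and a median of 0.05. The prolactin receptor gene Prlr had the highest change, 0.38, at 39.54 TPM in the KO pool and 30.35 TPM in the WT pool, and the leptin receptor gene Lepr the lowest, -0.41. Lifr, the most abundant, was at 183.3 and 177 TPM.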
